A study of Mus musculus with 6 samples.

Results

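The gasdermin genes were followed in GFP-positive keratinocytes of the hair bulge (HB), as the rows of the gene count table that carry the symbols *Gsdma*, *Gsdma2*, *Gsdma3*, *Gsdmc* or *Gsdmd*. These are 5 of the 22295 genes in the table, and all 5 had a count above 0 in at least 1 library and belong to the 21681 genes tested. The genes were selected on the read counts in the knockout (KO) and wild type (WT) libraries, with the difference between the genotypes known, so their KO against WT values are given below as a description without a p-value. RNA was sequenced from K19 *Itga3* KO mice, which combine K19-CreER and mT/mG with *Itga3* fl/fl, and from K19 *Itga3* WT mice with the same transgenes but no floxed allele, both bred on FVB, with 3 libraries per genotype. All mice carried the tamoxifen-inducible Cre and the reporter, were given tamoxifen for 4 days from the age of 6 weeks according to the sample labels, and then received 1 dose of DMBA (30 μg) at 7 weeks, followed by repeated TPA (12.34 μg per application) for a short period. The comparison asks what the loss of integrin α3 changes in HB-derived cells during the initiation stage of skin carcinogenesis. Cre is driven by the K19 promoter and recombined cells turn from red to green, so the sort collects HB cells together with whatever their progeny have become, and keratinocytes of other origin are outside the gate.

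Gasdermins are a family of pore-forming proteins. A protease cuts the protein in its linker, the N-terminal part is released from its inhibitory C-terminal part, inserts into membranes and forms pores, through which interleukin-1 family cytokines leave the cell and which can end in lytic cell death (pyroptosis). *Gsdmd* is the substrate of the inflammasome caspases and is widely expressed, whereas the gasdermin A genes are known from the epithelium of skin and hair follicle and of the upper digestive tract. Mice carry 3 gasdermin A genes side by side on chromosome 11, and mutations in *Gsdma3* that relieve the inhibition cause hair loss and skin inflammation in several mouse mutants. *Gsdmc* is likewise an epithelial gasdermin, with closely related copies next to it on chromosome 15.

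Integrin α3 itself was checked first. *Itga3* was measured at 371, 252 and 271 CPM (read counts divided by the library total and put on a common scale with TMM factors) in the WT libraries, here called WT a, WT b and WT c, and at 131, 124 and 134 CPM in KO a, KO b and KO c. The KO libraries lay below every WT library (298 ± 63.9 against 129 ± 5.22 CPM, SD, n = 3), with a log2 fold change of −1.20 ± 0.13 (SE, edgeR quasi-likelihood test, Benjamini-Hochberg adjusted p = 0.00283). The adjusted p was 0.130 without WT c and 0.0934 without KO a (edgeR). Library totals were 20578309 to 23670507 counts, at which 3 counts, the floor used here, correspond to 0.128 to 0.145 CPM. Over all genes, 146 of 21681 passed an adjusted p of 0.05 (0.673%), of which 100 rose in KO (0.461%) and 46 fell (0.212%). An unadjusted p below 0.05 was given to 2503 genes (11.5%), the share against which the counts of the lists below are to be read.

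The 5 genes lie on 2 chromosomes. In build GRCm38, on the plus strand of chromosome 11, *Gsdma3* spans chr11:98626360-98638226, *Gsdma2* chr11:98646759-98657964 and *Gsdma* chr11:98664351-98677708. This cluster starts 3.55 Mb from the end of *Itga3*, on the same chromosome. *Gsdmc* (chr15:63775968-63808759, minus strand) and *Gsdmd* (chr15:75862339-75867404, plus strand) lie apart from each other on chromosome 15. The coding sequences of the 3 cluster genes are 89.0% to 90.9% identical, whereas each of them is 60.4% to 61.6% identical to *Gsdmc* or *Gsdmd*. *Gsdmc* is 87.0% to 87.5% identical to its copies *Gsdmc2*, *Gsdmc3* and *Gsdmc4*.

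This likeness bears on the counts, because reads had 65 bases and were counted only where they mapped uniquely. The stretches printed here are read-length windows of the coding sequence, shown because they mark the extremes of how well a read can tell the cluster genes apart. They were taken from the GENCODE transcripts (GRCm38), and capitals mark the positions at which the 3 genes do not all carry the same base. In the most similar window, 1 of 65 positions differs, and a read from it is identical in *Gsdma3* and *Gsdma2*.
*Gsdma3*, chr11:98635289-98635353: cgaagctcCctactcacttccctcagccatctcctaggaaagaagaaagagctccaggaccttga
*Gsdma2*, chr11:98654952-98655016: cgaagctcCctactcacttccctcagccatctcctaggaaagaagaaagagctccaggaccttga
*Gsdma*, chr11:98673059-98673123: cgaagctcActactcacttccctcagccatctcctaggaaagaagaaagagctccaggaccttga

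In the least similar window of the cluster, in an earlier coding exon, 24 of 65 positions differ and each gene has its own sequence.
*Gsdma3*, chr11:98631206-98631270: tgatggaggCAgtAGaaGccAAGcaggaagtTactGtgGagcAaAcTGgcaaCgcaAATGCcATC
*Gsdma2*, chr11:98650909-98650973: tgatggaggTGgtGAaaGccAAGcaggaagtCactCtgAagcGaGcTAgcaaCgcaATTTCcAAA
*Gsdma*, chr11:98669684-98669748: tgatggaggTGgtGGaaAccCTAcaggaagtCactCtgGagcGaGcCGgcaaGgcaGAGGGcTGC

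In the family of *Gsdmc* the most similar window is the same in all 4 genes, so that a read from it has 4 places to map, and it has no capitals.
*Gsdmc*, chr15:63776797-63776861: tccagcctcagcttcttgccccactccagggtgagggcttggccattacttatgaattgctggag
*Gsdmc4*, chr15:63891963-63892027: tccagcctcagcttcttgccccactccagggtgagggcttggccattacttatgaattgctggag

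Most positions nevertheless gave a unique read. Of all 65-base windows of a gene's transcripts, 98.6% of *Gsdma3*, 96.5% of *Gsdma2*, 95.4% of *Gsdma*, 87.4% of *Gsdmc* and 100% of *Gsdmd* occurred in no other gene of the transcriptome. The share was 56.7% to 67.4% for *Gsdmc2*, *Gsdmc3* and *Gsdmc4*, whose counts are therefore the least certain of the family. Windows that come within 2 mismatches of another family gene made up 26.2% of *Gsdma3*, 14.7% of *Gsdma2*, 21% of *Gsdma*, 22.1% of *Gsdmc* and none of *Gsdmd*. A base that differs between mouse strains could move such reads between the cluster genes, and this was not tested.

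*Gsdma3* had the most reads of the family. It was counted 931, 1114 and 1136 times in WT a, WT b and WT c, which is 42.7, 51.0 and 50.1 CPM, and 2357, 1431 and 1518 times in KO a, KO b and KO c, which is 100.2, 67.1 and 73.4 CPM. Every KO library lay above every WT library, and KO a stood highest. The means were 47.9 ± 4.55 CPM in WT and 80.2 ± 17.6 CPM in KO (SD, n = 3), with a log2 fold change of 0.74 ± 0.14 (SE).

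*Gsdma*, at the other end of the cluster, showed the same order of genotypes with fewer reads. It had 229, 344 and 203 counts in the WT libraries (10.5, 15.8 and 8.95 CPM) and 690, 395 and 439 counts in the KO libraries (29.3, 18.5 and 21.2 CPM). The groups did not overlap, with the lowest KO library (KO b) just above the highest WT library (WT b), and KO a was again the highest of all. The mean went from 11.7 ± 3.57 CPM in WT to 23.0 ± 5.62 CPM in KO (SD, n = 3), with a log2 fold change of 0.97 ± 0.22 (SE). Leaving out KO a lowered the log2 fold change to 0.76 for *Gsdma* and 0.55 for *Gsdma3*, the lowest values over the 6 fits that each left out 1 library.

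*Gsdma2*, which lies between these genes, was close to the floor. It had 4, 11 and 2 counts in the WT libraries and 13, 5 and 8 in the KO libraries, or 0.182, 0.504 and 0.0882 CPM against 0.553, 0.234 and 0.386 CPM. The groups overlapped, and the log2 fold change of 0.60 was no larger than its SE of 0.63. A difference of this size in *Gsdma2* was not resolved at this depth. Without WT b, the WT library with 11 counts, its log2 fold change was 1.51.

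The gasdermins of chromosome 15 showed no separation of the genotypes. *Gsdmc* was at 7.43, 22.2 and 16.9 CPM in the WT libraries (162, 485 and 384 counts) and at 13.4, 12.4 and 11.4 CPM in the KO libraries (316, 264 and 236 counts). The KO libraries lay close together, inside the range of the WT libraries, of which WT a was the lowest and WT b the highest of all 6. The log2 fold change was −0.32 ± 0.29 (SE), and without WT a it was −0.65 and without WT b 0.03.

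*Gsdmd*, the gasdermin of the canonical inflammasome, was at 7.62, 6.73 and 6.75 CPM in WT (166, 147 and 153 counts) and at 6.80, 8.58 and 5.13 CPM in KO (160, 183 and 106 counts). All WT values fell between the highest KO library (KO b) and the lowest (KO c). Its log2 fold change was −0.04 ± 0.20 (SE, n = 3 per group).

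**Figure D1:**
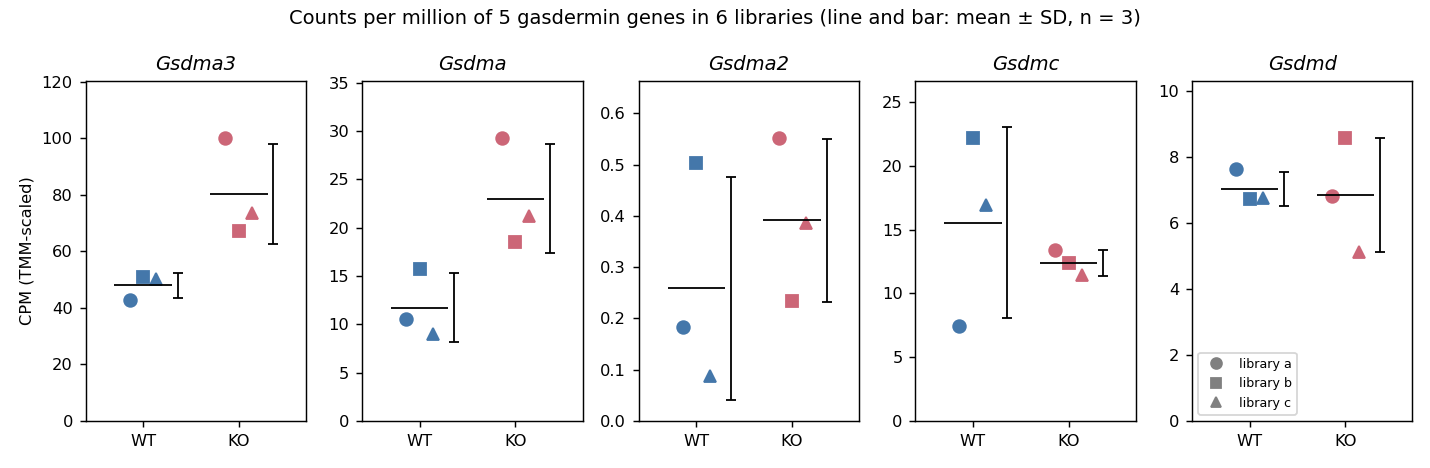
CPM of each of the 5 gasdermin genes (vertical axes, TMM-scaled, each from 0) in the 3 WT and 3 KO libraries, with symbols for libraries a, b and c, a line at the mean and a bar for the SD. The KO points of *Gsdma3* (67.1 to 100.2) and *Gsdma* (18.5 to 29.3) all lie above the WT points (42.7 to 51.0 and 8.95 to 15.8), and those of the other 3 genes overlap with WT.

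Of the 5 genes, 2 thus had KO libraries that all lay above the WT libraries, and none had KO libraries that all lay below. Over all genes tested, 8.03% had non-overlapping groups with KO above and 8.23% with KO below. Because the genes were chosen with this contrast known, nothing is read from their count. RNA was measured in bulk, so a larger share of cells that express a gene and more RNA per cell cannot be told apart in any of these values.

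Levels were compared between genes after division by exon length. On this scale *Gsdma3* was the highest gasdermin in each of the 6 libraries, at 29.7 ± 2.82 CPM per kb in WT and 49.7 ± 10.9 CPM per kb in KO (SD, n = 3). *Gsdma* followed at 4.31 ± 1.31 and 8.45 ± 2.06 CPM per kb, *Gsdmc* at 6.46 ± 3.11 and 5.16 ± 0.42 CPM per kb, and *Gsdmd* at 2.96 ± 0.213 and 2.88 ± 0.727 CPM per kb. The order below *Gsdma3* was *Gsdma*, *Gsdmc*, *Gsdmd* in every KO library. In WT it varied, since *Gsdmc* was above *Gsdma* in WT b and WT c (9.24 against 5.78 and 7.04 against 3.28 CPM per kb) and below *Gsdma* and *Gsdmd* in WT a, where the 3 genes lay between 3.09 and 3.86 CPM per kb. In WT the range of *Gsdmc* thus overlapped those of *Gsdma* and *Gsdmd*. Per kb of exon, *Gsdma* lay above *Gsdmd* in every WT library, with the lowest *Gsdma* value (3.28) close to the highest *Gsdmd* value (3.20 CPM per kb). *Gsdma2* stayed at 0.0286 to 0.179 CPM per kb of exon. The WT order of *Gsdma* and *Gsdmd* depended on the length used. With the longest coding transcript as length, *Gsdmd* was at 3.92 ± 0.283 and *Gsdma* at 4.31 ± 1.31 CPM per kb in WT (SD, n = 3).

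The proportion of the cluster genes to each other was also taken. *Gsdma3* exceeded *Gsdma* 5.47- to 9.45-fold per kb in WT libraries and 5.77- to 6.12-fold in KO libraries, and these ranges overlap. Of the summed level of the 5 genes per kb, *Gsdma3* made up 72.2%, 63.7% and 70.2% in WT a, WT b and WT c and 76.2%, 72.7% and 75.4% in KO a, KO b and KO c.

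The cluster was then set against the gasdermins elsewhere within each library, which removes the library's scaling. The summed level of *Gsdma3*, *Gsdma2* and *Gsdma* per kb was 4.83, 3.11 and 3.48 times that of *Gsdmc* and *Gsdmd* in WT a, WT b and WT c, and 8.64, 5.53 and 7.74 times in KO a, KO b and KO c. The lowest KO ratio (KO b) was above the highest WT ratio (WT a). The log2 ratio was 1.90 ± 0.329 in WT and 2.84 ± 0.335 in KO (SD, n = 3). The cluster's own sum was 34.1 ± 3.59 CPM per kb in WT and 58.3 ± 13.0 in KO, and the groups did not overlap. The sum of *Gsdmc* and *Gsdmd* was 9.41 ± 2.91 in WT and 8.04 ± 0.994 in KO, and the groups overlapped. Both sums entered the ratio. WT a had the highest WT ratio with the lowest cluster sum (30.4 CPM per kb), because its sum of *Gsdmc* and *Gsdmd* was also the lowest (6.30 CPM per kb). The genes were chosen on these counts, and the ratio is a description of them.

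**Figure D2:**
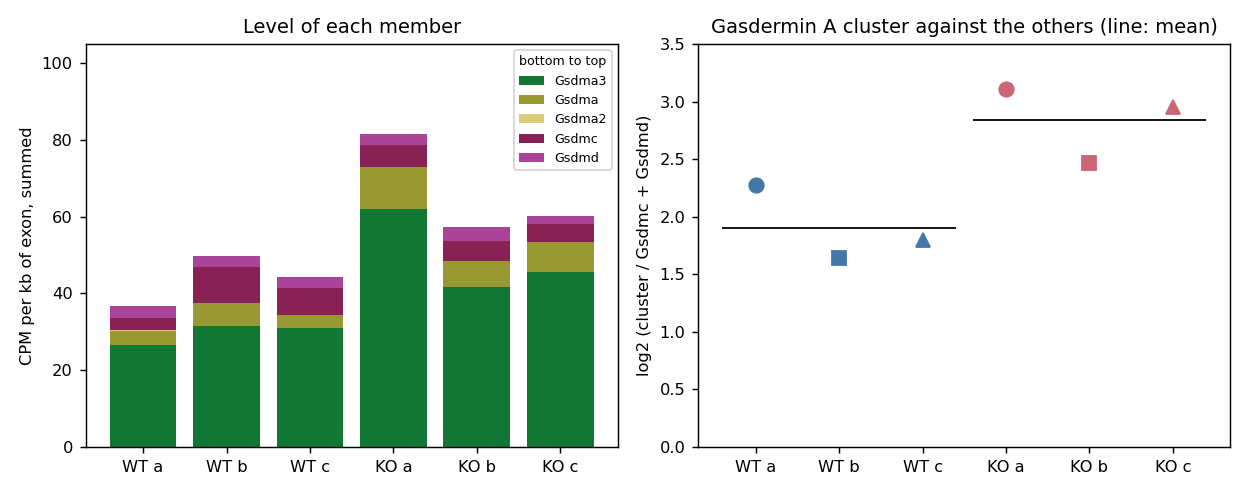
Left, level of each of the 5 genes per kb of exon (vertical axis, stacked from 0) in each library; right, log2 ratio of the summed cluster to the sum of *Gsdmc* and *Gsdmd* in the same library, with a line at each mean (1.90 in WT and 2.84 in KO). The 3 KO ratios lie above the 3 WT ratios, and *Gsdma3* fills most of every bar.

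The remaining genes of the family were scarce in these cells. *Gsdme*, which the table lists under its older name *Dfna5*, was at 1.20 ± 0.379 CPM in WT and 1.39 ± 0.386 CPM in KO (SD, n = 3). The copies next to *Gsdmc* were at 0.695 ± 0.231 and 0.642 ± 0.0942 CPM (*Gsdmc2*), 0.543 ± 0.275 and 0.576 ± 0.0905 CPM (*Gsdmc4*) and 0.152 ± 0.0714 and 0.152 ± 0.0521 CPM (*Gsdmc3*). *Pjvk* (listed as *Dfnb59*), a divergent member known from hearing, had 0 or 1 count in every library, which is within the floor. None of these 5 genes passed the test in either direction (edgeR, adjusted p of 0.838 to 0.999), and none had an unadjusted p below 0.05. Per kb of exon, all 5 stayed below 0.42 CPM per kb in every library, as did *Gsdma2*. When only windows unique to a gene were counted as length, *Gsdmc2* reached 0.734 and *Gsdmc4* 0.605 CPM per kb, still below every value of *Gsdmd* (2.05 or more on that scale).

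**Figure D3:**
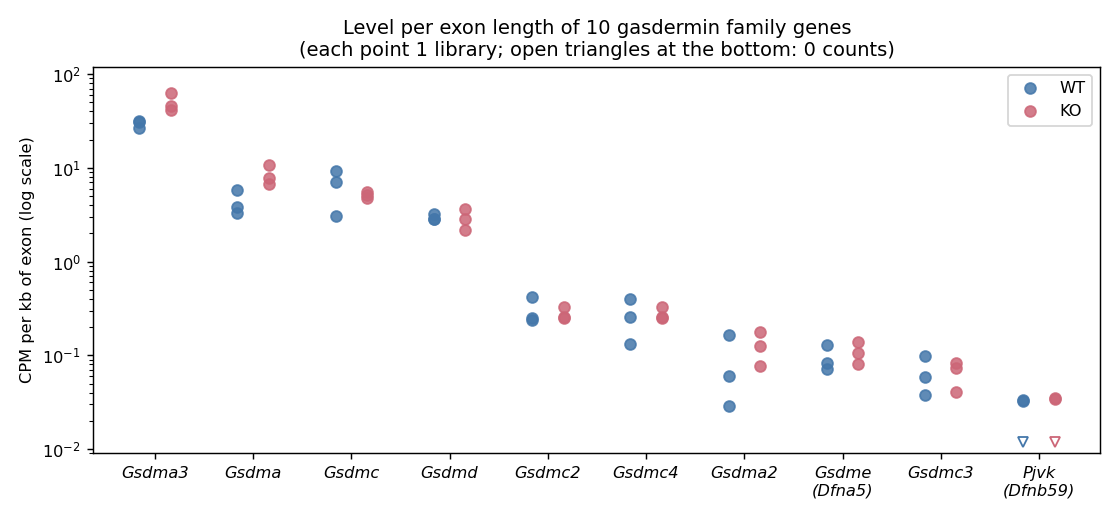
Level of 10 gasdermin family genes per kb of exon (log scale) in each WT and KO library, ordered by their mean, with open triangles at the bottom for libraries with 0 counts. *Gsdma3* lies highest in every library (26.5 to 62.1), *Gsdma*, *Gsdmc* and *Gsdmd* follow, and the other 6 genes lie below 0.42.

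Genes that act upstream of gasdermin pores showed no called difference, and some of them were scarce. Of 7 proteases tested that cut gasdermins, none passed and none had an unadjusted p below 0.05 (edgeR). *Casp1*, the inflammasome caspase, and *Casp8*, which can cleave *Gsdmc* and *Gsdmd*, had 10 or more counts in every library, with *Casp1* at 29.7 ± 2.59 CPM in WT and 32.4 ± 6.74 CPM in KO and *Casp8* at 27.2 ± 3.44 and 23.7 ± 0.791 CPM (SD, n = 3). *Casp4*, which in mouse encodes the sensor of cytosolic lipopolysaccharide, was low (1.52 ± 0.803 and 1.14 ± 0.284 CPM). The leukocyte proteases *Gzmb* and *Elane* stayed within the floor in all libraries, and *Ctsg* was not among the genes tested.

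Among 11 inflammasome sensors and adaptors, none passed the test, and 3 had an unadjusted p below 0.05. These were *Nlrp1b* (log2 fold change −1.61 ± 0.59, SE, edgeR adjusted p = 0.298), *Nlrp1a* (−0.91 ± 0.39, adjusted p = 0.404) and *Aim2* (2.41 ± 1.1, adjusted p = 0.432). *Nlrp1b* was at 1.29, 8.52 and 1.90 CPM in WT a, WT b and WT c and at 0.935, 1.36 and 1.55 CPM in the KO libraries, so that WT b alone stood apart. Without WT b the log2 fold change was −0.32 for *Nlrp1b*, −0.36 for *Nlrp1a* and 5.06 for *Aim2*, and without KO a it was −0.62 for *Nlrp1a*. *Aim2* was within 0 to 0.339 CPM. The adaptor *Pycard* was at 68.2 ± 15.0 CPM in WT and 75.5 ± 8.35 CPM in KO, and *Nek7*, which licenses the NLRP3 sensor, was at 178 ± 20.2 CPM in WT. *Nlrp3* itself was near the floor (0.0747 ± 0.0499 CPM in WT and 0.132 ± 0.109 CPM in KO). Of the 11 genes, 5 had 10 or more counts in every library, and 4 stayed within the floor in all libraries.

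RNA of the interleukin-1 family, which holds cytokines that leave through the pores as well as receptors and antagonists, was also measured. Release of the proteins was not measured. None of 15 genes of the interleukin-1 family and of membrane rupture passed the test, 4 had an unadjusted p below 0.05, and the median log2 fold change of the list was 0.33 against 8.82e-05 over all genes tested. The 4 were *Il1a*, the alarmin stored by keratinocytes (0.88 ± 0.34, SE, edgeR adjusted p = 0.343), *Il1f8* (*Il36b*, 0.69 ± 0.29, adjusted p = 0.380), the receptor antagonist *Il1rn* (0.33 ± 0.14, adjusted p = 0.403) and *Il1f5* (*Il36rn*, the antagonist of the interleukin-36 receptor, 0.34 ± 0.15, adjusted p = 0.411). *Il1a* was at 0.597, 0.870 and 1.01 CPM in WT and 1.70, 1.03 and 1.84 CPM in KO. The groups of 4 of the 15 genes did not overlap, with KO above in each, and for none was KO below. These were *Il1a*, *Il1f8*, *Il1f5* and *Hmgb1* (log2 fold change 0.08), whereas the groups of *Il1rn* overlapped. Over all genes tested the shares were 8.03% with KO above and 8.23% with KO below. *Il1b* (0.241 ± 0.185 CPM in WT) and *Il18* (1.35 ± 0.542 CPM in WT), the classical cargo of *Gsdmd* pores, were low. *Ninj1*, which breaks the plasma membrane after pores have formed, was at 36.9 ± 0.812 CPM in WT and 35.3 ± 2.30 CPM in KO (adjusted p = 0.819).

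Of 9 genes that regulate gasdermins, none passed. *Irf1*, an interferon-responsive transcription factor, had the smallest p, at 65.8, 80.8 and 80.9 CPM in WT and 118.8, 90.1 and 104.9 CPM in KO (0.46 ± 0.12, SE, edgeR adjusted p = 0.117), and DESeq2 gave it an adjusted p of 0.0372. *Chmp4b*, of the ESCRT machinery that removes pores from membranes, had a log2 fold change of 0.22 ± 0.0897 (edgeR adjusted p = 0.369). For these 2 of the 9 genes every KO library lay above every WT library, and for 0 of them below. Over all genes tested the shares were 8.03% and 8.23%. *Irf2*, known to drive *Gsdmd*, was at 47.7 ± 4.30 CPM in WT and had an adjusted p of 0.681 (edgeR).

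**Figure D4:**
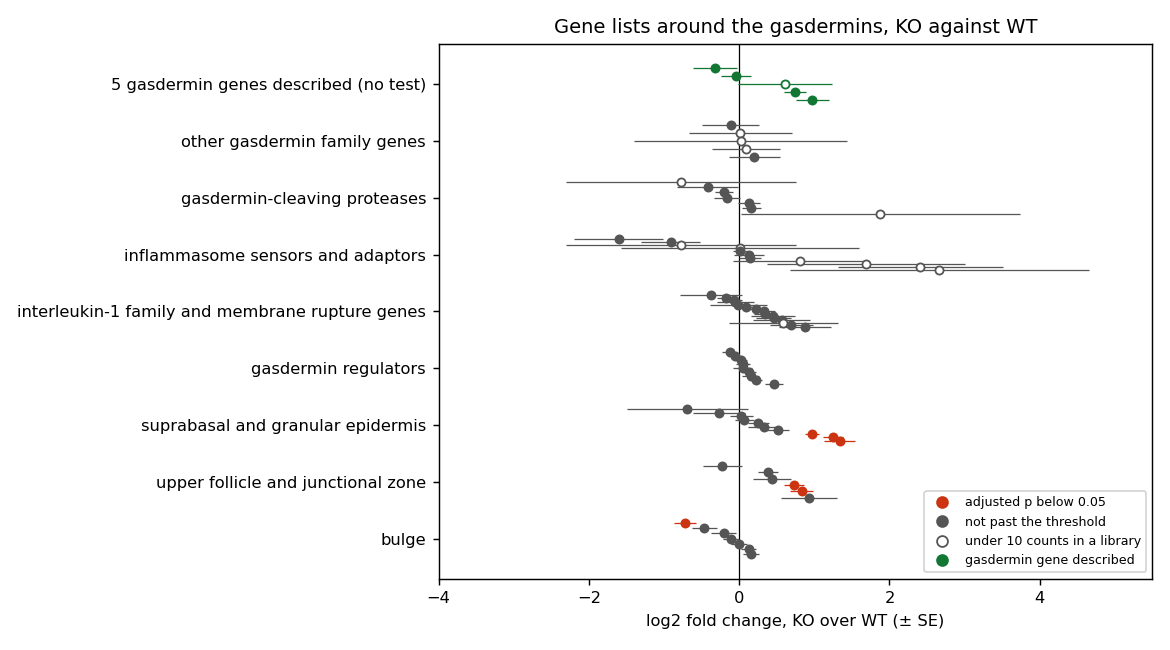
Log2 fold change of KO over WT (horizontal axis, ± SE) for the 5 gasdermin genes, which have no test, and for each gene of 5 lists around gasdermins and 3 marker lists, with red for an adjusted p below 0.05 (edgeR) and open points for genes under 10 counts in a library. The points of the first 5 lists are grey throughout, and red points stand among suprabasal (3), upper follicle (2) and bulge (1) markers.

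The genes around the cluster were described because of its position on the chromosome of *Itga3*. Of 31 protein-coding neighbours within 500 kb, none passed the test, 4 had an unadjusted p below 0.05 (3 higher and 1 lower in KO), and the median log2 fold change was 0.04. Non-overlapping groups were seen with KO above for 4 neighbours and with KO below for 4. Over all genes tested the shares were 8.03% and 8.23%. Some of these neighbours had no more than 5 counts in any library, and 23 of the 31 had 10 or more counts in every library. The nearest gene before *Gsdma3*, *Gm12355*, lies 0.699 kb away and was near the floor (0.168 ± 0.116 CPM in WT and 0.456 ± 0.192 CPM in KO, edgeR adjusted p = 0.415). The nearest gene after *Gsdma*, the proteasome subunit *Psmd3*, lies 4.85 kb away and was at 206 ± 23.7 CPM in WT and 240.4 ± 6.38 CPM in KO (log2 fold change 0.22 ± 0.10, SE, edgeR adjusted p = 0.431). *Rara*, the retinoic acid receptor α, had the smallest p of the neighbours, with 40.7, 42.0 and 31.4 CPM in WT and 52.0, 54.6 and 72.9 CPM in KO (0.65 ± 0.15, SE, edgeR adjusted p = 0.0733). Its adjusted p was 0.0449 without WT a and 0.00789 with DESeq2. *Fbxl20*, an F-box gene, had the second smallest p and was lower in KO, at 68.9, 116.3 and 89.8 CPM in WT and 70.3, 72.0 and 72.0 CPM in KO (−0.36 ± 0.15, SE, edgeR adjusted p = 0.384). The groups of *Fbxl20* overlapped, and its log2 fold change was −0.52 without WT a (adjusted p = 0.0387) and −0.15 without WT b (adjusted p = 0.770, edgeR). Whether the KO and WT lines carry the same sequence over this stretch of chromosome 11 was not tested.

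**Figure D5:**
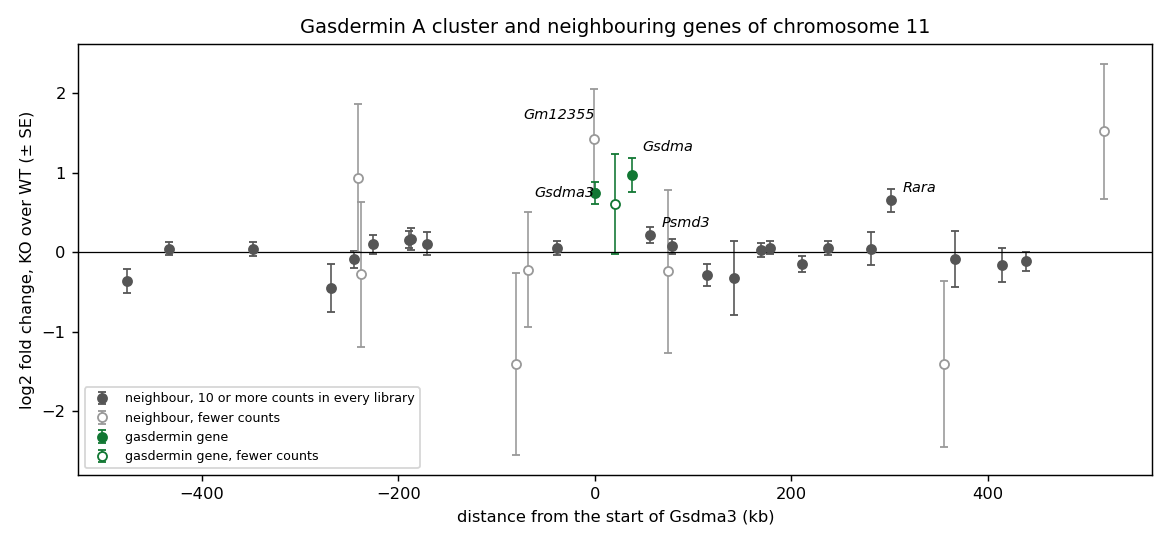
Log2 fold change of KO over WT (± SE) of the 3 gasdermin A genes (green) and their 31 protein-coding neighbours, against the distance from the start of *Gsdma3* in kb, with open points for genes under 10 counts in a library. *Gsdma3* (0.74) and *Gsdma* (0.97) lie above *Psmd3* (0.22), their nearest neighbour with 10 or more counts in every library.

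Around the genes of chromosome 15, none of 34 protein-coding neighbours passed, and 1 had an unadjusted p below 0.05 (*Maf1*, log2 fold change −0.26 ± 0.11, SE, edgeR adjusted p = 0.381). *Fam49b*, next to the *Gsdmc* genes, was at 32.6 ± 0.674 CPM in WT and 33.5 ± 0.913 CPM in KO. *Zc3h3* and *Mroh6*, on either side of *Gsdmd*, were at 6.61 ± 1.62 and 3.53 ± 0.626 CPM in WT and 7.12 ± 0.580 and 3.96 ± 0.444 CPM in KO (SD, n = 3). On the far side of *Gsdmc*, the nearest protein-coding gene of the table was *Myc*, at 180 ± 53.3 CPM in WT and 190 ± 21.0 CPM in KO.

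Some markers of other follicle and epidermal compartments rose in the KO libraries, in which *Gsdma3* and *Gsdma* were higher. The marker lists were chosen with earlier results of these data known, so their counts of called genes are a description. Over all genes tested, 0.461% rose in KO. Of 10 markers of suprabasal and granular epidermis, 3 rose in KO, which were *Sbsn* (0.96 ± 0.09, SE, edgeR adjusted p = 0.00104), *Klk5* (1.25 ± 0.13, adjusted p = 0.00242) and *Klk7* (1.34 ± 0.21, adjusted p = 0.0187). The summed level of all 10 markers was 1973 to 2580 CPM in WT and 2911 to 3187 CPM in KO. Of the 10, *Sbsn* had the largest difference in CPM (513 ± 28.5 in WT and 1002 ± 28.2 in KO), so the sum mostly follows this gene. The main suprabasal keratins *Krt1* (777 ± 113 and 816 ± 79.6 CPM) and *Krt10* (566 ± 134 and 577 ± 75.1 CPM) overlapped between the genotypes, as did the granular genes *Lor* (26.4 ± 29.2 and 16.4 ± 12.9 CPM) and *Flg* (8.42 ± 4.02 and 7.02 ± 2.60 CPM), whose log2 fold changes were −0.69 and −0.26. Of 6 markers of the upper follicle and junctional zone, *Plet1* (0.83 ± 0.15, SE, edgeR adjusted p = 0.0325) and *Krt17* (0.73 ± 0.14, adjusted p = 0.0409) rose, *Gata6* had a log2 fold change of −0.22 ± 0.26, and the sum was 2685 to 3388 CPM in WT and 5833, 3750 and 5275 CPM in KO a, KO b and KO c. KO a was thus highest and KO b lowest of the KO libraries, as for *Gsdma* and *Gsdma3*. This sum mostly follows *Krt17* (2078 ± 10.2 CPM in WT and 3437 ± 633 CPM in KO). The groups of *Lrig1*, *Krt79*, *Defb6* and *Gata6* overlapped. Of 12 markers of inner root sheath and hair shaft, *Krt25*, *Krt28* and *Krt35* rose from low levels (0.395 to 4.36, 1.69 to 6.00 and 0.316 to 2.81 CPM, edgeR adjusted p = 0.0256, 0.0461 and 0.0462), while the sum overlapped (153 to 179 CPM in WT and 167 to 208 CPM in KO). Their part in the values of *Gsdma3* and *Gsdma* was not tested.

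Most of these marker calls were lost when single libraries were left out, while the log2 fold changes kept their sign (0.94 to 1.01 for *Sbsn*, 1.17 to 1.33 for *Klk5*, 0.98 to 1.51 for *Klk7*, 0.69 to 0.99 for *Plet1* and 0.63 to 0.88 for *Krt17* over the 6 fits). Without KO a, *Sbsn* and *Klk7* had an adjusted p of 0.0221 each, *Klk5* of 0.0532, and *Plet1* and *Krt17* of 0.306 each (edgeR). Without WT c the adjusted p was 0.0520 for *Sbsn*, 0.126 for *Klk5* and 0.368 for *Klk7*, *Plet1*, *Krt17* and *Krt25* each. *Krt25*, *Krt28* and *Krt35* had an adjusted p of 0.290, 0.354 and 0.352 without KO a. Without KO c, *Sbsn*, *Klk5* and *Klk7* stayed below 0.05 and the other called markers did not, and without WT b the call was lost for *Plet1*, *Krt17*, *Krt28*, *Krt35* and *Cd34*.

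The label of HB cells was checked against bulge markers, with *Krt15* at a high level (12516 ± 2837 CPM in WT and 10836 ± 1489 CPM in KO), and all 7 bulge markers had 10 or more counts in every library. *Cd34* was the only bulge marker that passed the test, and fell from 853 ± 40.7 to 516 ± 113 CPM (−0.72 ± 0.14, SE, edgeR adjusted p = 0.0462, and 0.250 without KO a). Over all genes tested, 0.212% fell in KO. *Lgr5* was lower without passing, at 586 ± 116 CPM in WT and 424 ± 92.1 CPM in KO (−0.47 ± 0.17, SE, edgeR adjusted p = 0.283), and its groups overlapped. Of the 7 bulge markers, 2 had a log2 fold change above 0. None of 4 basal and 6 sebaceous gland markers passed. Markers of immune cells, melanocytes and endothelial cells were scarce. The 7 immune cell markers summed to 6.41 to 11.5 CPM in WT and 6.25 to 10.2 CPM in KO, with *Ptprc* at 0.376 ± 0.105 CPM in WT, the 4 melanocyte markers to 5.37 to 11.6 and 8.96 to 9.53 CPM, and the 4 endothelial markers to 2.34 to 3.57 and 2.64 to 3.52 CPM, and none passed. *Lyz2* had 0 counts in every WT library. *S100a8* and *S100a9*, which keratinocytes also express when stimulated, made up the neutrophil list almost alone (sum 72.1 to 197 CPM in WT and 144 to 288 CPM in KO), and *Elane* was within the floor. Of 6 fibroblast markers none passed (smallest edgeR adjusted p = 0.0555, for *Col1a2*), but 5 had an unadjusted p below 0.05, in both directions. The sum of the 6 was lower in KO (48.1 to 80.3 CPM) than in WT (116 to 178 CPM). The sum is almost all *Col1a1* and *Col1a2* (log2 fold changes of −1.19 and −1.18), whereas 3 of the 6 (*Dcn*, at 1.03 ± 0.588 CPM in WT and 3.70 ± 1.98 CPM in KO, *Col3a1*, with 0 counts in WT, and *Lum*, within the floor) were higher in KO and the median log2 fold change of the list was 0.33.

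The genes whose pattern over the 6 libraries was most like that of a gasdermin were found by the root mean square difference of log2 CPM after centring each gene on its own mean, among 13054 genes with 10 or more counts in every library. Nearest to *Gsdma3* was *Cdkn1a*, the cell cycle inhibitor p21, with a difference of 0.042 on the log2 scale, where *Gsdma3* itself varied by an SD of 0.411. *Cdkn1a* was at 126, 149 and 145 CPM in WT a, WT b and WT c and 296, 197 and 199 CPM in KO a, KO b and KO c, so that it shared the high value of KO a and the low value of WT a. *Fam43a* (0.076) and *Zfp750* (0.082), a transcription factor of epidermal differentiation, came next. Nearest to *Gsdma* were *Frat2* (0.115), *Gm26735* (0.150) and *Smox* (0.155), against an SD of 0.582 of *Gsdma*. These genes lie on other chromosomes, except *Zfp750*, which is on chromosome 11 but outside the 500 kb window.

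The gasdermins of chromosome 15 had other nearest genes. For *Gsdmc* they were *Vav3* (0.101), *Ccdc18* (0.134) and *Sdr16c5* (0.139), and *Vav3* was, like *Gsdmc*, lowest in WT a (12.7 CPM) and highest in WT b (32.8 CPM), with KO at 18.2 to 21.0 CPM. For *Gsdmd* they were *Gdap10* (0.075), *Satb1* (0.083) and *Zfp454* (0.090), against an SD of 0.224 of *Gsdmd*. *Gsdma2* had too few counts for this comparison. The 6 points of each pattern share libraries and depth, and the nearest genes were picked out of all genes compared for their likeness.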

How the data were processed

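RNA of FACS-sorted GFP-positive keratinocytes was measured in 3 K19 *Itga3* KO and 3 K19 *Itga3* WT libraries. The authors prepared poly(A)-selected, strand-specific libraries and aligned single 65-base reads to GRCm38 with TopHat (version 2.1.0, with Bowtie 1.1, per the submitters' processing notes), and then counted reads with a unique position for each gene and strand. The deposited values are raw counts. The column names hold the genotype, a run number, an animal-like code that differs in each column and a barcode, but nothing that matches the sample numbers of the labels, so the libraries were named a, b and c in table order. The paper states that cells came from 3 mice per genotype. Preparation days are not given in the sources used here.

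The test was the quasi-likelihood test of edgeR 4.0.16 in R 4.3.3 (TMM, glmQLFit, glmQLFTest, no covariate) on the 21681 genes that any library detected, with Benjamini-Hochberg adjustment over them; another tool is named where it was used. The SE of a log2 fold change is its absolute value divided by the square root of the quasi-likelihood F statistic of that gene. It is derived from the test statistic and not estimated on its own, also for the 5 gasdermin genes. CPM is scaled by TMM factors. Log2 CPM for patterns used a prior count of 1. The 5 gasdermin genes and the lists were chosen with earlier results of these data known. Alternatives were limma-voom (limma 3.58.1), DESeq2 1.42.0, library-size scaling, 2 filters on low counts, each library left out in turn, and other lengths. Exon lengths and 65-base windows came from GENCODE M21 transcripts (GRCm38), and only transcripts, not the whole genome, were searched for copies. Genes named are the 5 gasdermins, their family, *Itga3*, of each list the genes past an adjusted p of 0.05 or else up to 3 with the smallest p (of marker lists only the former), its most abundant gene where it is given, the nearest neighbours, and the 3 nearest patterns. *Casp1*, *Casp4*, *Casp8*, *Gzmb*, *Elane*, *Ctsg*, *Pycard*, *Nlrp3*, *Il1b*, *Il18*, *Ninj1*, *Irf2*, *Il1f5*, *Krt1*, *Krt10*, *Lor*, *Flg*, *Gata6*, *Lrig1*, *Krt79*, *Defb6*, *Lgr5*, *Ptprc*, *Lyz2* and the fibroblast genes were added for their roles after values were seen. No pair of libraries agreed within sampling noise (chi-square at least 10.1 times its degrees of freedom). The SD and SE given include the spread between libraries, and the floors cover counting error only. On simulated counts with 200 changed genes among 20835, edgeR recovered 32.8% of 1.5-fold, 86.6% of 2-fold and 98.5% of 4-fold changes, and 4.61% of its calls were false. The changed genes all had a mean above 1 CPM. Counts were drawn with the dispersion trend over all genes, without a spread of its own for each gene and without shifts between libraries. These rates therefore do not cover scarce genes such as *Gsdma2* and need not hold for the real libraries.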

Additional observations from a re-analysis of the deposited data

How the results depend on the processing

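No paired analysis was possible because the columns of the count table carry no replicate number that matches the sample labels. Over the 6 fits that each left out 1 library, the log2 fold change ranged from 0.76 to 1.24 for *Gsdma* and from 0.55 to 0.87 for *Gsdma3*, from 0.19 to 1.51 for *Gsdma2*, from −0.65 to 0.026 for *Gsdmc* and from −0.22 to 0.13 for *Gsdmd*, so that the last 2 turned in sign (*Gsdmc* at 0.026 without WT b, *Gsdmd* at 0.03 without WT a and 0.13 without KO c). The direction of *Gsdma* and *Gsdma3* held with limma-voom, DESeq2, library-size scaling and both filters (0.96 to 1.00 and 0.73 to 0.75). *Itga3* ranged from −1.31 to −1.01, and was −1.27 without WT c and −1.21 without KO a, where its call was lost (edgeR adjusted p = 0.130 and 0.0934, range over the 6 fits 0.000599 to 0.130). The log2 ratio of the cluster to *Gsdmc* and *Gsdmd* was 1.45 in WT and 2.41 in KO without division by length, and 1.72 to 2.03 and 2.71 to 3.03 with a library left out. The count of called neighbours of the cluster was 0 to 2 with a library left out (2 without WT a, *Rara* and *Fbxl20*) and 1 with DESeq2, and that of called gasdermin regulators was 1 with DESeq2. The other lists around the gasdermins had 0 called genes under each alternative. Of the called markers, *Sbsn* and *Klk5* stayed below 0.05 with limma-voom and with both filters, and the others did not or were filtered out. With the longest coding transcript as length, an alternative chosen after seeing the data, *Gsdmd* was at 3.92 CPM per kb in WT and 3.82 in KO, and *Gsdma2* at 0.155 and 0.234. The length of *Gsdma* was the same on both scales, and its value in WT c (3.28 CPM per kb) was below that WT mean of *Gsdmd*. Over all genes, edgeR called 146, limma-voom 24, DESeq2 546, edgeR with filterByExpr 15 of 13811, and edgeR with 10 or more counts in every library 12 of 13054; with 1 library left out the count ranged from 5 (without WT c) over 10 (without KO a) to 521 (without WT a). The causes of these changes were not tested. With 3 libraries per group and the depth given above, only large differences could be resolved in genes near the floor such as *Gsdma2*.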
